A study of Homo sapiens with 16 samples.

Results

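The genes described here are those of the Rab GTPases and of the coats, complexes and sorting proteins that move membrane vesicles between compartments. They were taken by symbol from the genes that could be named in the footprint tables: RAB, SEC, VPS or SNX followed by a digit, the COPI coat subunits (COPA, COPB, COPE, COPG and COPZ), and TRAPPC. Of 193 coding genes with such symbols, 181 were named, out of 18399 named genes in all. They fell into 69 Rab genes and Rab partner genes, 27 SEC, 8 COPI, 34 VPS, 28 sorting nexin (SNX) and 15 TRAPPC genes. The 12 that were not matched, RAB1A and VPS26A among them, have no value here.

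Ribosome profiling sequences the stretches of mRNA that ribosomes protect from RNase, so a gene's footprint count tracks the ribosomes engaged on it. The cells were 4 established human cancer lines, wild type in genetic background per the labels: NCI-H1650 and NCI-H520 from lung cancer, Hs 936.T and A375 from melanoma. Cells of each line were kept for 30 min with rocaglamide A (RocA), a plant compound that clamps the translation initiation helicase eIF4A onto mRNA, at 0.3 or 3 µM (1 library per line at each dose), or with its solvent DMSO (2 libraries per line), which made 16 libraries. The 4 lines therefore served as the replicates of a dose, and a single line at a single dose has no replicate check.

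Rab proteins are small GTPases that sit on the membrane of one compartment each and, when loaded with GTP, recruit the proteins that move, tether and fuse vesicles there. The COPII coat carries newly made proteins out of the endoplasmic reticulum (ER), the COPI coat returns material from the Golgi to the ER, and the TRAPP complexes activate Rabs on that route. The VPS proteins form the machines of the endosome, among them retromer, ESCRT, HOPS and GARP, and sorting nexins bind endosomal lipids and bend or sort the membrane.

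Named-gene totals were 81233 to 981777 counts in the 8 RocA libraries and 917652 to 5494674 in the 8 DMSO libraries. The shallowest was NCI-H1650 at 3 µM, with 8.81% of the mean DMSO total of its line. Levels are CPM, a gene's count scaled to a fixed total per library. The named-gene total of each library was first adjusted by the TMM scaling given with the methods. A printed CPM is therefore not the gene's share of its library's own total. The changes are relative to these adjusted totals, and a fall in total translation would not show. Without matched mRNA measurements, a change in ribosomes per mRNA and a change in mRNA level cannot be told apart. The members took 0.717 to 1.09% of the counts with RocA and 0.874 to 1.25% with DMSO. DMSO replicate 2 and the 3 µM library of NCI-H520 carry the cell line label NCI-H521 beside a title that names NCI-H520, and were grouped by title. Nothing in the labels says that the libraries of a line came from separate cultures, so the spread between DMSO libraries may be technical.

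At both RocA doses more Rab and SEC genes were called lower than higher, while the VPS, sorting nexin and TRAPPC genes moved both ways. Of the 181 members, 129 passed the filter on low counts, and the counts below describe those alone. A call is an adjusted p under 0.05 in the quasi-likelihood test of edgeR, with Benjamini-Hochberg adjustment over all 9007 genes tested. At 0.3 µM, 40 members were higher and 44 lower than with DMSO; of all genes tested, 27.4% were higher and 32.4% lower. At 3 µM, 38 members were higher and 52 lower, where all genes gave 25.0% higher and 31.9% lower. Both doses were set against the same DMSO libraries, so they are not independent of each other. The median log2 fold change of the members tested was 0.01 at 0.3 µM and -0.28 at 3 µM, against -0.10 and -0.17 over all genes tested.

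The balance of higher and lower genes varied by family, and the differences between families were not tested. Among 39 Rab family genes tested, 7 were higher and 19 lower at 0.3 µM (median log2 fold change -0.54), and 7 were higher and 23 lower at 3 µM (median -0.92, also with RAB29, which had no count there, at its bound). RAB29, RAB25, RAB6C and RAB7B, with 0, 1, 2 and 3 counts at 3 µM, passed the filter through other libraries. That dose could therefore only show them as lower. With the libraries of a line thinned to equal depth, 33 Rab genes were tested. Of these, 4 were higher and 13 lower at 0.3 µM, and 4 were higher and 18 lower at 3 µM. Among 20 SEC genes, 5 were higher and 9 lower at 0.3 µM (median -0.35), and 4 were higher and 11 lower at 3 µM (median -0.62). The 29 VPS genes gave 12 higher and 8 lower at 0.3 µM (median 0.24), and 13 higher and 8 lower at 3 µM (median 0.06). The 21 sorting nexins gave 8 higher and 3 lower, then 7 higher and 5 lower, and the 13 TRAPPC genes 5 higher and 2 lower, then 3 higher and 2 lower. Of the 7 COPI genes tested, 3 were higher and 3 lower at 0.3 µM, and 4 were higher and 3 lower at 3 µM. More Rab genes were lower than higher under each of 28 settings of the analysis, at both doses, and the same held for the SEC genes. All genes tested also gave more lower than higher calls under each setting at both doses. This criterion alone therefore does not set the Rab and SEC genes apart. Without the shallow NCI-H1650 library at 3 µM, 7 Rab genes were higher and 22 lower at that dose.

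**Figure D1:**
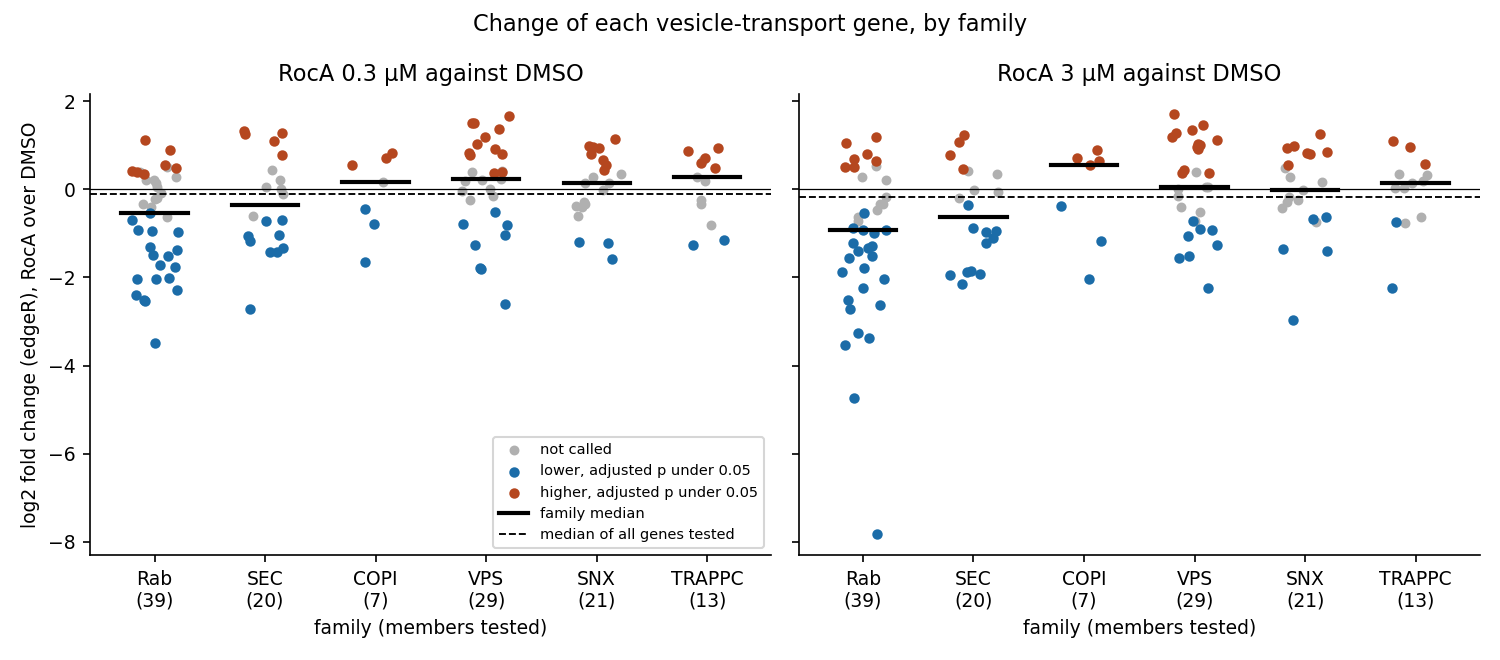
Log2 fold change of each tested member with RocA over DMSO (vertical axis, edgeR) by family, at 0.3 µM (left) and 3 µM (right); points are genes, coloured where the adjusted p is under 0.05, bars are family medians and the dashed line is the median of all genes tested. The Rab median lies at -0.54 and -0.92, below the all-gene medians of -0.10 and -0.17.

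The Rab median lay below that of all genes in each line taken alone. The median log2 change of the 39 tested Rab genes at 0.3 µM was -0.82 (NCI-H1650), -0.36 (NCI-H520), -0.14 (Hs 936.T) and -0.53 (A375). The medians of all genes at that dose were -0.14, -0.17, -0.06 and -0.09 in the same lines. At 3 µM the Rab medians were -1.52, -0.80, -0.86 and -0.58, against -0.48, -0.15, -0.15 and -0.11 over all genes. Of the members called at 0.3 µM, 72 of 84 (85.7%) had the same sign in all 4 lines, close to the 83.1% over all called genes, and 70 of 90 (77.8%) did at 3 µM, against 79.6%.

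RocA clamps eIF4A on runs of purines (A or G), a preference known from biochemical work, so the 5' untranslated regions (5' UTRs) of the members were read from GENCODE 29 on GRCh38. The sequences below show the longest run of A and G in the 5' UTR, in capitals, with up to 5 bases on either side. They were taken from the 2 largest called rises and falls of each family at 3 µM, counting members whose mean level reached 10 CPM and whose sign was shared by the 4 lines, and show the 3 with the largest falls and the 3 with the largest rises of that set. RAB29, which had no count at 3 µM and a mean level under 10 CPM, and RAB6A, VPS11 and VPS13C, which ranked below the leading 2 of their family, are therefore not shown.
RAB10: gccctGAGGGGGGAGGGGAGGccatt
RAB6C: ggtgcGGAAGGAGGGAAcggcc
SNX9: gaggcGGAGGAGcggcc
VPS35L: atAGAAActacg
VPS50: AGGAtaccc
SNX24: ggggcGGGAGGcgggg
RAB10, RAB6C and SNX9 are lowered genes, and VPS35L, VPS50 and SNX24 raised ones. RAB10 (chromosome 2, 26034110 to 26137454, plus strand) has a 5' UTR of 499 bases with a run of 16, and 5.63% of all tested genes have a run as long. RAB6C (chromosome 2, 129979664 to 129982738, plus strand) has a run of 12 in 452 bases, a length reached by 16.6% of tested genes. SNX9 (chromosome 6, 157700387 to 157945077, plus strand) has a run of 7 in 171 bases, a length reached by 62.3%. VPS35L (chromosome 16, 19555240 to 19706793, plus strand) has a run of 5 in 48 bases. VPS50 (chromosome 7, 93232340 to 93361121, plus strand) has a run of 4 in 128 bases, and SNX24 (chromosome 5, 122845449 to 123009212, plus strand) one of 6 in 116 bases.

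Over the members with an annotated 5' UTR, the run and the length of the 5' UTR went with the change much as they did over all genes. At 3 µM the median longest purine run was 6 bases in 37 raised members, 9 in 51 lowered members and 6 in 37 that were not called. Over all genes it was 6 in raised and 9 in lowered ones. The median 5' UTR length was 99 bases in raised and 239 in lowered members, and 96 and 243 over all genes. Across the 125 members, Spearman's rho between the run and the log2 change was -0.39 (-0.33 across 8643 genes), and between 5' UTR length and the change -0.50 (-0.38). These are descriptions across genes of the same libraries, and a longer 5' UTR has more room for a long run, so the 2 features are not separate. Single members went against them: TRAPPC4, with the longest run among raised members (27 bases), and SEC11A, with one of 14, both rose at both doses, while RAB12, with 20, was not called.

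**Figure D2:**
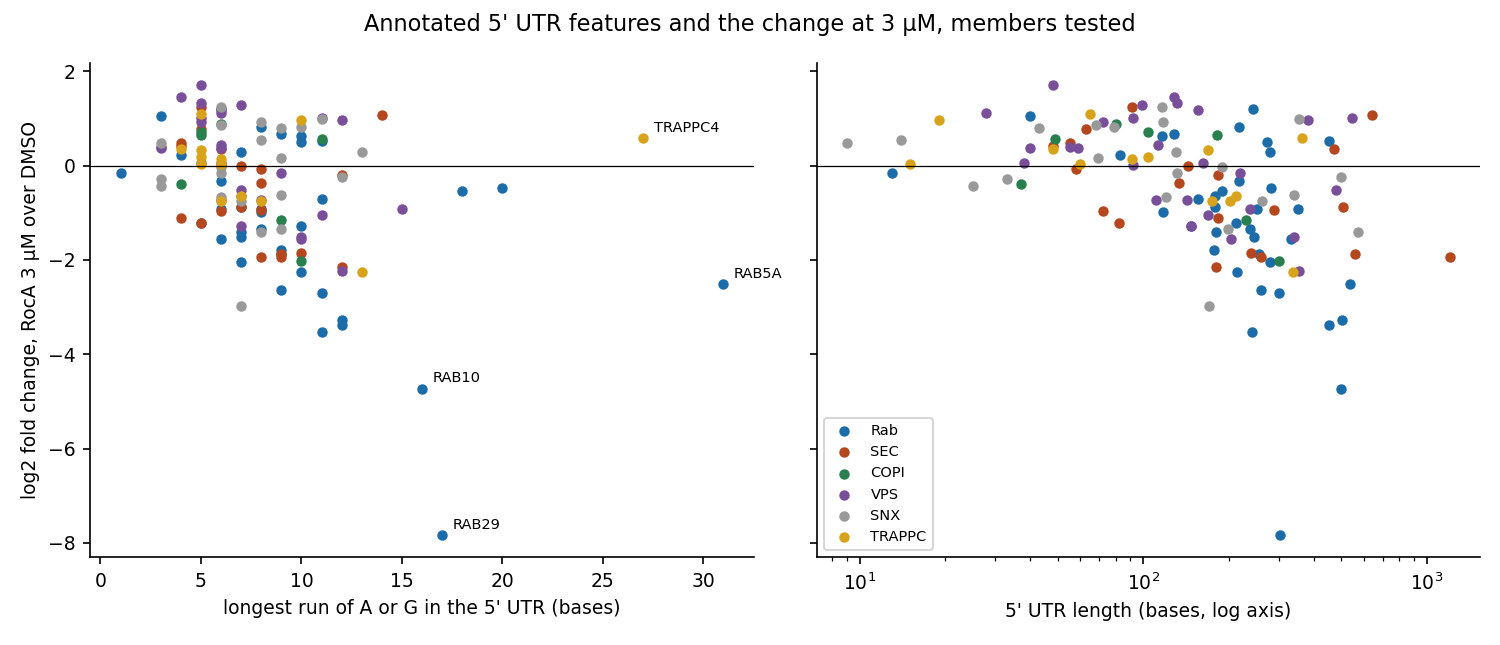
Log2 fold change at 3 µM over DMSO (vertical axis) of each tested member against a feature of its annotated 5' UTR in GENCODE 29, coloured by family. Lowered members had a median run of 9 bases and a median length of 239 bases, against 6 and 99 in raised members.

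Among the Rabs, the clearest fall was that of RAB10, which guides vesicles to the plasma membrane and carries the glucose transporter GLUT4 there in fat cells. With DMSO it ranged over 96.6 to 144 CPM (median 115, 8 libraries). At 0.3 µM it stood at 7.70 CPM (NCI-H1650), 2.90 CPM (NCI-H520), 18.4 CPM (Hs 936.T) and 3.74 CPM (A375), and at 3 µM at 0, 2.69, 8.35 and 2.1 CPM in the same lines. No treated library came near the lowest DMSO library. The log2 fold change was -3.50 ± 0.25 (SE) at 0.3 µM (adjusted p = 1.6e-15) and -4.73 ± 0.34 at 3 µM (adjusted p = 7.0e-15).

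The 3 RAB5 genes, which organise the early endosome, all fell. RAB5A had a DMSO range of 36.9 to 62.6 CPM (median 55.5), and stood at 7.70, 2.90, 17.2 and 1.87 CPM at 0.3 µM and at 18.7, 10.8, 10.4 and 4.20 CPM at 3 µM in NCI-H1650, NCI-H520, Hs 936.T and A375. All 8 treated libraries lay below all 8 DMSO libraries, and the log2 fold change was -2.51 ± 0.29 (adjusted p = 1.3e-09) and -2.51 ± 0.34 (adjusted p = 5.1e-08) at the 2 doses. Its longest 5' UTR purine run, 31 bases, was the longest among the lowered members. RAB5C changed by -2.29 ± 0.16 and -2.71 ± 0.18 on the log2 scale, and RAB5B by -0.93 ± 0.24 and -1.40 ± 0.31, at 0.3 and 3 µM. RAB5B and RAB5C, and other members outside the naming rule given with the methods, were picked after their values were seen.

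Of 11 tested Rabs of the early endosome and recycling route, 2 were higher and 6 lower at 0.3 µM, and 2 were higher and 8 lower at 3 µM. The shares over all genes tested were 27.4% higher and 32.4% lower, then 25.0% and 31.9%. RAB25, with few counts at either dose, passed the filter on low counts through the lung DMSO libraries, so the doses could only show it as lower. At equal depth 10 Rabs of this group were tested, with 2 higher and 5 lower at 0.3 µM, and 2 higher and 7 lower at 3 µM. The 2 that rose were the recycling endosome Rabs RAB11A and RAB11B. RAB11A ranged over 199 to 306 CPM with DMSO (median 253), and stood at 412, 490.4, 304 and 273 CPM at 0.3 µM and at 411, 581, 391 and 289.5 CPM at 3 µM in the 4 lines in the same order. Its rise was modest, with a log2 fold change of 0.49 ± 0.11 (adjusted p = 1.6e-04) and 0.68 ± 0.11 (adjusted p = 1.6e-06), and levels overlapped between lines, since NCI-H520 with DMSO was above A375 with RocA. RAB14, which acts between Golgi and endosomes, and RAB21, which takes part in integrin uptake, fell: RAB14 was at -1.31 ± 0.16 and -1.34 ± 0.18, and RAB21 at -2.04 ± 0.24 and -1.88 ± 0.27. RAB25, the epithelial relative of RAB11, held 3 counts at 0.3 µM and 1 at 3 µM, against 138 with DMSO, all of these 138 from the lung lines. Scaled line by line to the depth of each line, a setting added after the data were seen, the counts were 6.09-fold lower (95% counting interval of the RocA count alone, 2.08 to 29.5) and 12.8-fold lower (2.29 to 505). Pooled over the 4 lines, where the melanoma lines add depth without counts, they were 4.22-fold and 9.03-fold lower.

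All 5 tested Rabs of late endosomes and lysosomes were lower at both doses. Of all genes tested, 32.4% were lower at 0.3 µM and 31.9% at 3 µM. RAB29 and RAB7B, with 0 and 3 counts at 3 µM, passed the filter on low counts through other libraries. That dose could therefore only show them as lower. At equal depth 3 of these Rabs were tested, and all were called lower. Over 28 settings, which tested 3 to 6 of them, none was called higher and 3 to 6 were called lower. At 3 µM, 4 of 5 were called without the NCI-H1650 library of that dose, and 4 without the libraries labelled NCI-H521. RAB7A, which directs late endosomes to fuse with lysosomes, ranged over 215 to 1101 CPM with DMSO (median 381). It stood at 53.9, 107, 401 and 97.2 CPM at 0.3 µM and at 84.1, 126, 391 and 136 CPM at 3 µM in NCI-H1650, NCI-H520, Hs 936.T and A375. Every treated library lay below both DMSO libraries of its own line, although Hs 936.T with RocA was above NCI-H1650 with DMSO. The log2 fold change was -1.71 ± 0.13 (adjusted p = 1.2e-14) and -1.52 ± 0.13 (adjusted p = 1.2e-12). RAB9A, which serves traffic from late endosomes to the Golgi, changed by -1.49 ± 0.29 and -2.04 ± 0.39, and RAB24, linked to autophagy, by -2.02 ± 0.56 and -1.55 ± 0.59. RAB7B held 3 counts at 3 µM against 212 with DMSO, a ratio 4.63-fold lower (1.56 to 22.6).

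RAB29, a lysosome and Golgi Rab that recruits the kinase LRRK2, had no count at 3 µM in any line. It had 403 counts over the DMSO libraries, 2.80 to 27.2 CPM, and 9 counts at 0.3 µM, where it stood at 0, 2.90, 5.74 and 5.61 CPM. At a floor of 3 counts over the 4 libraries, it was at least 8.79-fold lower at 3 µM, and at 0.3 µM its log2 fold change was -2.04 ± 0.42 (adjusted p = 7.5e-05). RAB27B and RAB9B also had no count at 3 µM, with 113 and 51 counts over the DMSO libraries, and were at least 2.47-fold and 1.11-fold lower. RAB9B had none at 0.3 µM either and was at least 1.56-fold lower there. RAB17, with 15 DMSO counts on an entry of 45 codons, and SNX32, with 36, were also at 0 at 3 µM, but the depth allows no fold.

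The Rabs of the ER and Golgi gave 0 higher and 3 lower of 7 tested at 0.3 µM, and 1 higher and 4 lower at 3 µM. All genes tested gave 27.4% higher and 32.4% lower, then 25.0% and 31.9%. RAB6A, which acts in traffic through the Golgi, ranged over 36.1 to 129 CPM with DMSO, and stood at 11.6, 14.5, 14.9 and 5.61 CPM at 0.3 µM and at 9.34, 8.06, 4.18 and 8.39 CPM at 3 µM in the 4 lines. The treated libraries all lay below the DMSO ones, with a log2 fold change of -2.41 ± 0.25 and -3.27 ± 0.33. RAB6C, a processed copy of RAB6A whose reads may be shared with it, had 2 counts at 3 µM against 293 with DMSO (9.59-fold lower, 2.63 to 79.6), and a log2 fold change of -1.52 ± 0.41 at 0.3 µM (adjusted p = 0.0015). RAB1B, needed for traffic from the ER to the Golgi, changed by -0.69 ± 0.14 and -1.29 ± 0.17.

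Of 9 tested exocytic Rabs, 2 were higher and 4 lower at each dose, and the 2 were RAB13 and RAB8A. Genes at large gave 27.4% higher and 32.4% lower at 0.3 µM, and 25.0% and 31.9% at 3 µM. RAB13, which delivers junction proteins to the cell surface, ranged over 50.5 to 233 CPM with DMSO (median 143). It stood at 123, 131, 317 and 493 CPM at 0.3 µM and at 149, 126, 265 and 327 CPM at 3 µM in NCI-H1650, NCI-H520, Hs 936.T and A375, above both DMSO libraries of its line each time. The log2 fold change was 0.90 ± 0.12 (adjusted p = 3.9e-08) and 0.64 ± 0.14 (adjusted p = 1.1e-04). RAB8A changed by 0.41 ± 0.14 and 0.51 ± 0.15. Among the Rab partner proteins, RAB11FIP4, an effector of RAB11, changed by 1.12 ± 0.33 (adjusted p = 0.0034) and 1.19 ± 0.40 (adjusted p = 0.010). Its rise depended on single libraries: without NCI-H1650 at 0.3 µM it was 0.88 (adjusted p = 0.072), and without Hs 936.T at 3 µM 1.05 (adjusted p = 0.10). With the libraries of a line thinned to equal depth, it was called at neither dose (1.01 and 0.86, adjusted p = 0.061 and 0.12).

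**Figure D3:**
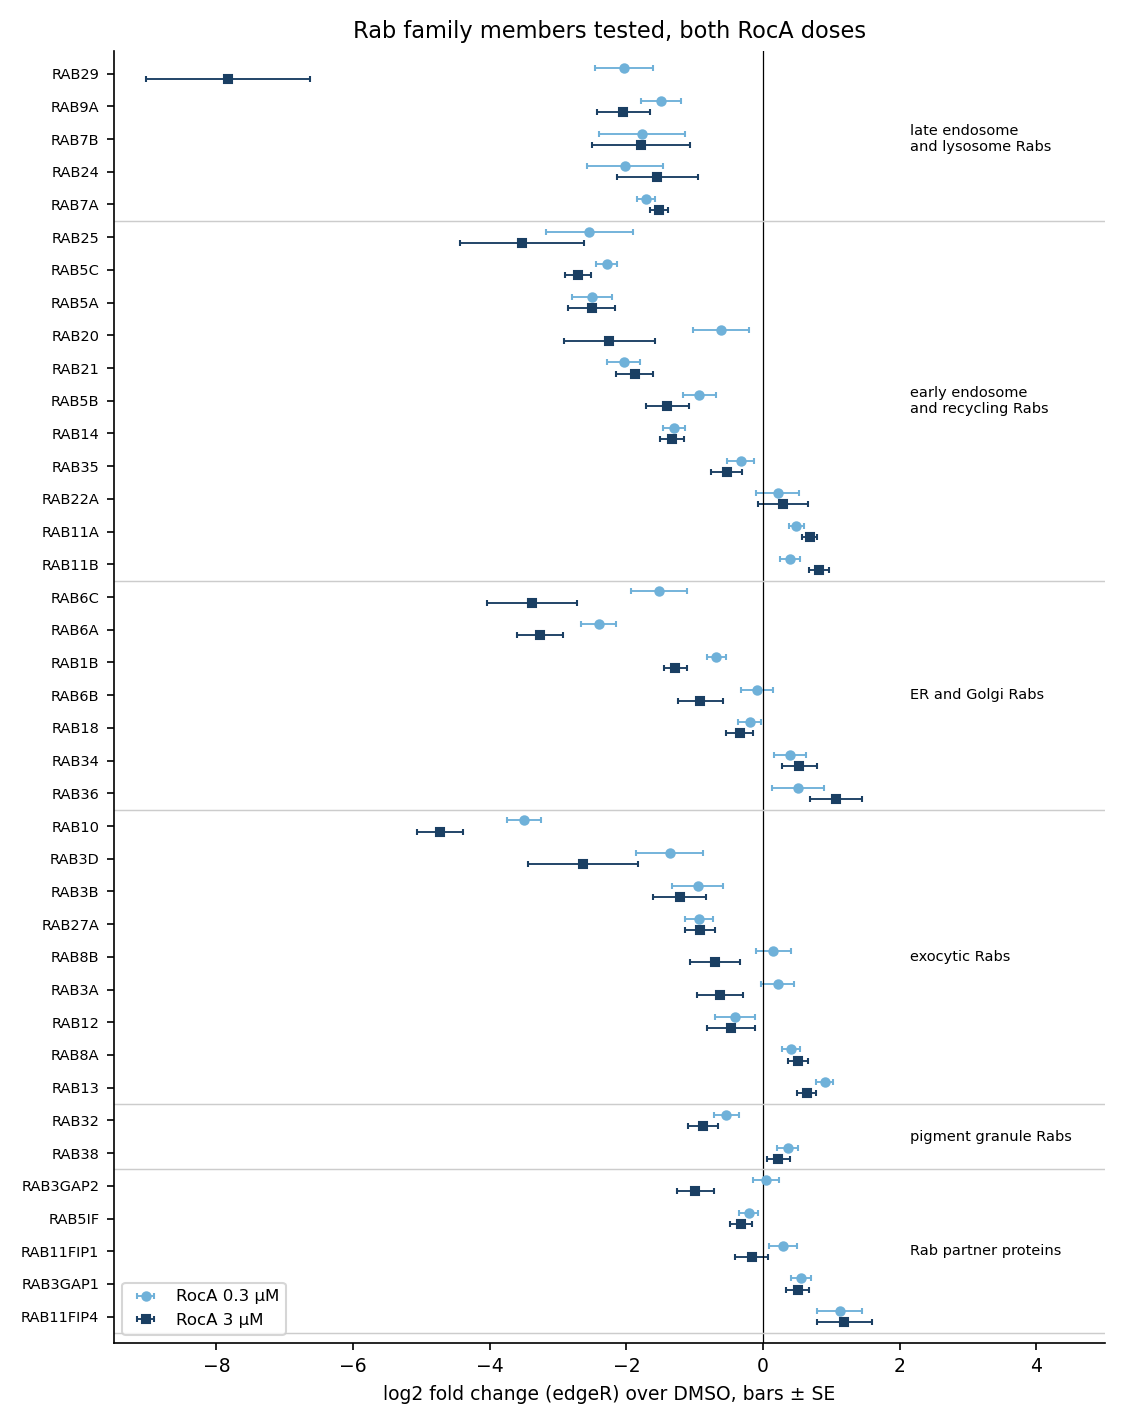
Log2 fold change over DMSO (horizontal axis, bars ± SE, edgeR) of the 39 Rab family genes tested, grouped by the compartment they serve, with RocA 0.3 and 3 µM as separate markers. All 5 late endosome Rabs lie left of 0, and RAB11A, RAB11B, RAB13 and RAB8A lie right of it; RAB29 had no count at 3 µM, so its point there has no size to read.

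The COPII coat buds vesicles from the ER. Of 8 subunits tested, 1 was higher and 5 lower at 0.3 µM, and 1 was higher and 6 lower at 3 µM. Over all genes tested, 27.4% were higher and 32.4% lower at 0.3 µM, and 25.0% and 31.9% at 3 µM. The difference between the coat and all genes was not tested. The cargo-binding SEC24 paralogs went different ways. SEC24D ranged over 19.4 to 89.9 CPM with DMSO (median 37.4), and stood at 11.6, 0, 5.74 and 7.48 CPM at 0.3 µM and at 9.34, 2.69, 8.35 and 18.9 CPM at 3 µM in the 4 lines. All treated libraries lay below the lowest DMSO library, with a log2 fold change of -2.71 ± 0.32 (adjusted p = 2.6e-09) and -1.85 ± 0.33 (adjusted p = 7.2e-06). SEC24B, in contrast, ranged over 39.4 to 75.7 CPM with DMSO (median 50.3), and stood at 166, 90.0, 124 and 93.5 CPM at 0.3 µM and at 112, 64.5, 71.0 and 62.9 CPM at 3 µM. It was above both DMSO libraries of its line at either dose, with a log2 fold change of 1.11 ± 0.13 (adjusted p = 1.2e-09) and 0.47 ± 0.16 (adjusted p = 0.013). The call at 3 µM was lost without the libraries labelled NCI-H521.

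The other COPII subunits were lower or not called. SEC23A, of the inner coat that activates the GTPase SAR1, ranged over 10.4 to 54.2 CPM with DMSO, and stood at 27.0, 5.80, 16.1 and 11.2 CPM at 0.3 µM and at 9.34, 5.38, 14.6 and 6.29 CPM at 3 µM. The groups overlapped at both doses, with NCI-H520 the lowest line under DMSO, and the log2 fold change was -1.41 ± 0.26 and -1.95 ± 0.35 (adjusted p = 1.3e-05 and 7.5e-06). SEC23B changed by -1.06 ± 0.16 and -0.87 ± 0.18, SEC24C by -1.03 ± 0.16 and -1.22 ± 0.19, and the outer coat subunit SEC13 by -0.69 ± 0.14 and -0.96 ± 0.15. SEC31A, the partner of SEC13 in the outer coat, was at 0.22 ± 0.13 (adjusted p = 0.14) and -0.19 ± 0.15 (adjusted p = 0.28). SEC24A was at 0.01 ± 0.16 at 0.3 µM and at -0.94 ± 0.21 at 3 µM, where it was called (adjusted p = 2.1e-04).

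The COPI coat was split between its subunits. COPA ranged over 185 to 881 CPM with DMSO (median 315), and stood at 123, 177, 529 and 164 CPM at 0.3 µM and at 28.0, 185, 338 and 147 CPM at 3 µM in NCI-H1650, NCI-H520, Hs 936.T and A375. COPB1 ranged over 146 to 190.3 CPM with DMSO (median 174), and stood at 38.5, 23.2, 83.8 and 56.1 CPM at 0.3 µM and at 0, 34.9, 62.6 and 42.0 CPM at 3 µM. COPB1 did not overlap between the groups, and COPA was lower than DMSO within each line. The log2 fold change was -0.78 ± 0.13 and -1.16 ± 0.15 for COPA (adjusted p = 3.9e-06 and 1.0e-08), and -1.64 ± 0.17 and -2.03 ± 0.21 for COPB1 (adjusted p = 2.0e-10 and 7.7e-11).

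The gamma subunits, which bind cargo and regulators, went the other way. COPG1 ranged over 196 to 536 CPM with DMSO (median 265), and stood at 369.8, 453, 862 and 366 CPM at 0.3 µM and at 327, 484, 833 and 378 CPM at 3 µM. COPG2 ranged over 33.0 to 70.4 CPM with DMSO (median 65.1), and stood at 139, 98.7, 86.1 and 122 CPM at 0.3 µM and at 93.4, 88.7, 107 and 136 CPM at 3 µM. Every treated library was above the DMSO libraries of its line, and for COPG2 above those of all lines. COPG1 changed by 0.71 ± 0.10 and 0.72 ± 0.11 (adjusted p = 1.4e-07 and 3.1e-07), and COPG2 by 0.82 ± 0.15 and 0.89 ± 0.16 (adjusted p = 7.2e-06 and 1.0e-05). COPB2, the beta-prime subunit that reads retrieval signals, rose by 0.55 ± 0.11 and 0.65 ± 0.11 (adjusted p = 2.2e-05 and 3.0e-06), and COPE was at 0.16 ± 0.12 (adjusted p = 0.27) and 0.56 ± 0.13 (adjusted p = 2.1e-04). COPZ1 was at -0.43 ± 0.13 (adjusted p = 0.0036) and -0.39 ± 0.14 (adjusted p = 0.016), and the second call was lost without NCI-H1650 at 3 µM (-0.30, adjusted p = 0.063) or without A375 at 3 µM (-0.35, adjusted p = 0.073). At equal depth that call was lost too (-0.27, adjusted p = 0.13). COPZ2 was not tested, with 3 counts at 3 µM and 68 with DMSO.

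**Figure D4:**
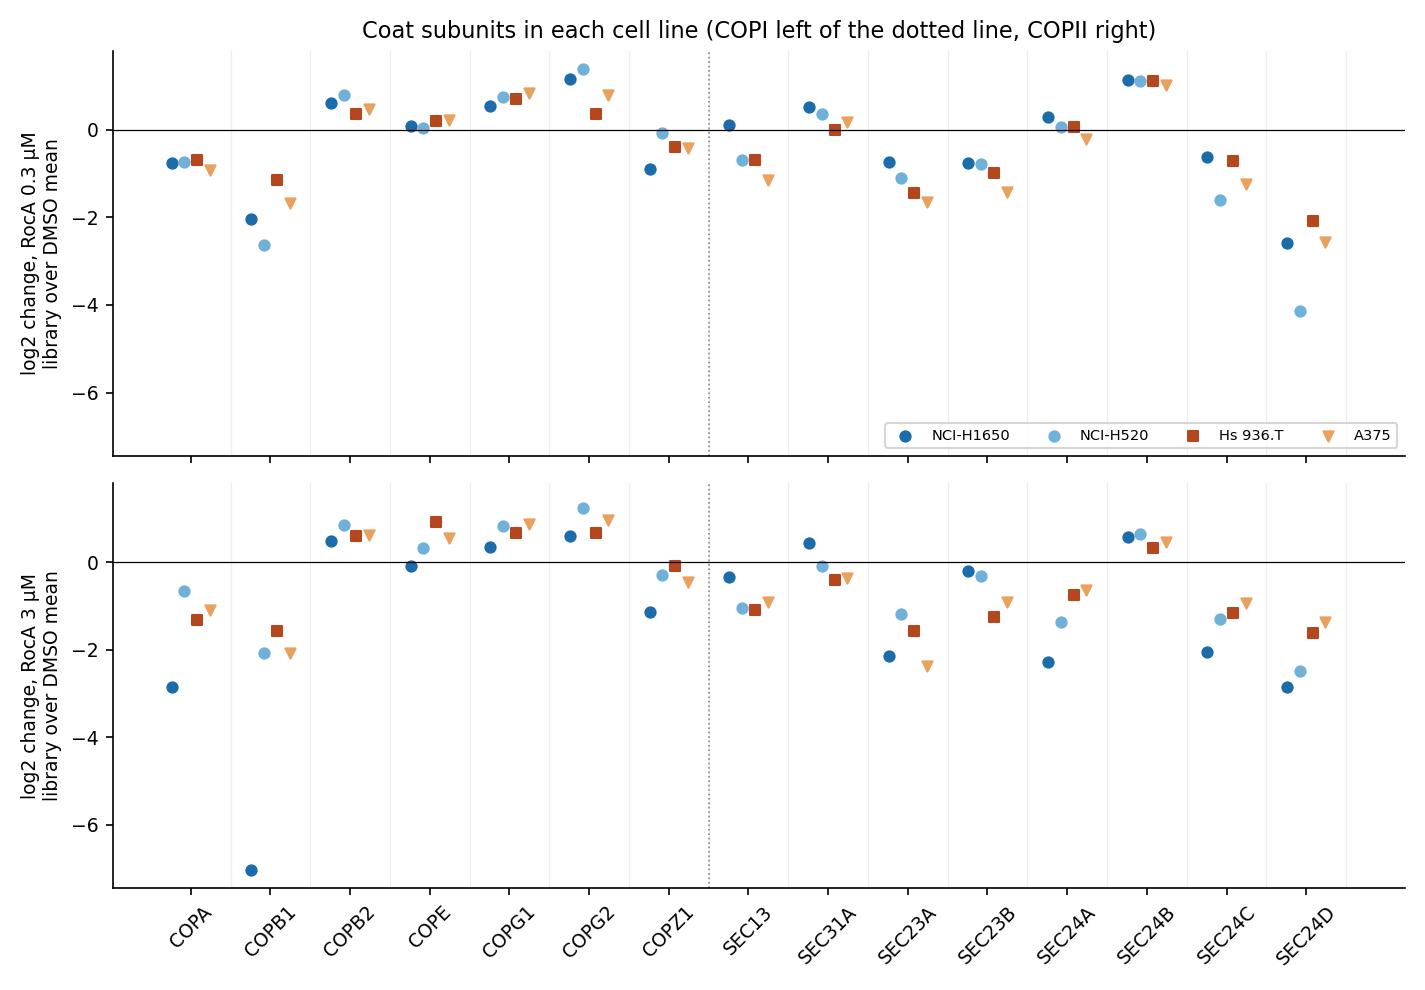
Log2 change of each coat subunit in each line (RocA library over the mean of the line's DMSO libraries, log2 CPM with a prior count of 2) at 0.3 µM (top) and 3 µM (bottom), COPI subunits left of the dotted line and COPII subunits right. COPG1, COPG2 and COPB2 lie above 0 and COPA and COPB1 below it in all 4 lines; COPB1 had 0 counts in NCI-H1650 at 3 µM.

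The genes of protein entry into the ER were split as well. SEC61G, a small subunit of the SEC61 channel, had the highest DMSO level of all members per length (4202 CPM per 1000 codons). It ranged over 163 to 308 CPM with DMSO, and stood at 767, 482, 512 and 675 CPM at 0.3 µM and at 682, 546, 608 and 472 CPM at 3 µM in the 4 lines, so the groups did not overlap. The log2 fold change was 1.29 ± 0.11 (adjusted p = 2.5e-13) and 1.24 ± 0.11 (adjusted p = 3.5e-12). SEC61B, the other small subunit, changed by 1.25 ± 0.10 and 0.78 ± 0.12, and the pore subunit SEC61A1 by -1.17 ± 0.12 and -1.11 ± 0.13. SEC63, which helps the channel take up finished proteins, ranged over 33.6 to 96.1 CPM with DMSO and stood at 0, 46.4, 43.6 and 13.1 CPM at 0.3 µM and at 18.7, 21.5, 20.9 and 10.5 CPM at 3 µM. The groups overlapped at 0.3 µM and not at 3 µM, and the log2 fold change was -1.34 ± 0.21 and -2.14 ± 0.27 (adjusted p = 7.5e-07 and 1.3e-08). SEC11A, the catalytic subunit of signal peptidase, ranged over 132 to 211 CPM with DMSO and stood at 397, 601, 304 and 361 CPM at 0.3 µM and at 280.2, 489, 279.8 and 313 CPM at 3 µM. It did not overlap between the groups, with a log2 fold change of 1.32 ± 0.10 (adjusted p = 2.3e-14) and 1.07 ± 0.11 (adjusted p = 9.4e-11).

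Within several endosomal complexes, partner subunits moved in opposite directions. Of the retriever complex, which returns membrane proteins from endosomes to the cell surface, VPS35L rose and VPS26C fell. VPS35L ranged over 26.2 to 83.2 CPM with DMSO (median 51.8), and stood at 169, 110.3, 111 and 183 CPM at 0.3 µM and at 243, 99.5, 102 and 235 CPM at 3 µM in NCI-H1650, NCI-H520, Hs 936.T and A375. No treated library overlapped with the DMSO libraries, and the log2 fold change of 1.51 ± 0.14 and 1.70 ± 0.15 (adjusted p = 1.5e-12 and 7.9e-13) was the largest rise among the members at 3 µM. VPS26C changed by -0.77 ± 0.20 and -0.93 ± 0.24. Of the related retromer, VPS35 ranged over 167 to 422 CPM with DMSO and changed by 0.37 ± 0.11 (adjusted p = 0.0052) and 0.37 ± 0.12 (adjusted p = 0.0098). Those calls were lost without NCI-H520 or A375 at 0.3 µM (0.26 in either case) and without NCI-H520 (0.24) or Hs 936.T (0.33) at 3 µM. Both were also lost without the filter on low counts (0.21 at either dose, adjusted p = 0.11 and 0.14). The 3 µM call was lost without the libraries labelled NCI-H521 too (0.25, adjusted p = 0.13). VPS29 changed by -0.80 ± 0.14 and -0.91 ± 0.16 (adjusted p = 4.7e-06 and 4.3e-06), and VPS26B was at 0.02 ± 0.33 and -0.52 ± 0.42 (adjusted p = 0.97 and 0.29).

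The ESCRT genes, which bud vesicles into endosomes, gave 2 higher and 2 lower of 6 tested at 0.3 µM, and 4 higher and 1 lower at 3 µM. At 0.3 µM both shares were 33.3%, near the 27.4% higher and 32.4% lower over all genes tested. At 3 µM all genes gave 25.0% higher and 31.9% lower. The 2 forms of the ATPase that takes ESCRT apart went opposite ways. VPS4A ranged over 37.8 to 74.8 CPM with DMSO and stood at 100.2, 92.9, 64.3 and 86.0 CPM at 0.3 µM and at 131, 153, 68.9 and 105 CPM at 3 µM. VPS4B ranged over 28.1 to 113 CPM with DMSO (median 62.0) and stood at 27.0, 23.2, 14.9 and 15 CPM at 0.3 µM and at 46.7, 16.1, 18.8 and 16.8 CPM at 3 µM. Every treated library had more VPS4A than the DMSO libraries of its line, while for VPS4B NCI-H1650 at 3 µM was above the lowest DMSO library. VPS4A rose by 0.77 ± 0.15 and 1.18 ± 0.16 (adjusted p = 2.8e-05 and 3.2e-08), and VPS4B changed by -1.79 ± 0.23 and -1.56 ± 0.25 (adjusted p = 8.5e-09 and 1.8e-06). The ESCRT-II subunit VPS36 changed by 1.36 ± 0.17 and 1.13 ± 0.21.

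The HOPS and CORVET tethers, which dock endosomes and lysosomes, gave 3 higher and 2 lower of 7 at 0.3 µM, and 3 higher and 1 lower at 3 µM. Across all genes tested the shares were 27.4% higher and 32.4% lower, then 25.0% and 31.9%. Of the HOPS and CORVET core, VPS11 ranged over 30.7 to 39.3 CPM with DMSO and stood at 69.3, 95.8, 107 and 110.3 CPM at 0.3 µM and at 121, 102, 75.2 and 81.8 CPM at 3 µM, with no overlap. It changed by 1.51 ± 0.15 and 1.34 ± 0.18, VPS16 by 1.20 ± 0.14 and 0.92 ± 0.16, and VPS18 by -1.03 ± 0.25 and -1.51 ± 0.32. VPS33B, which is not in that core but pairs with another protein in lysosome-related organelles, ranged over 12.8 to 34.0 CPM with DMSO. It stood at 3.85, 0, 6.89 and 1.87 CPM at 0.3 µM and at 0, 2.69, 6.26 and 6.29 CPM at 3 µM, below every DMSO library, with a log2 fold change of -2.60 ± 0.38 and -2.23 ± 0.42 (adjusted p = 2.0e-07 and 2.0e-05).

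GARP and EARP are tethers that share VPS51, VPS52 and VPS53, and VPS50 is the subunit found in EARP alone. VPS50 ranged over 13.6 to 50.6 CPM with DMSO (median 18.8) and stood at 61.6, 46.4, 81.5 and 35.5 CPM at 0.3 µM and at 93.4, 45.7, 115 and 52.4 CPM at 3 µM. Each treated library was above the DMSO libraries of its line, with a log2 fold change of 1.03 ± 0.18 and 1.46 ± 0.19 (adjusted p = 7.9e-06 and 3.6e-08). VPS51 rose by 0.93 ± 0.16 and 1.02 ± 0.17, and VPS53 was at -1.81 ± 0.47 and -1.27 ± 0.50 (adjusted p = 0.0037 and 0.040) with a large difference between lines that is given further on. The giant lipid carrier VPS13C ranged over 19.7 to 91.3 CPM with DMSO and stood at 177, 116, 243 and 82.2 CPM at 0.3 µM and at 112, 129, 146 and 69.2 CPM at 3 µM. It rose by 1.67 ± 0.14 and 1.28 ± 0.17 (adjusted p = 4.1e-13 and 3.9e-08), while its relative VPS13A was at -0.15 ± 0.23 and -1.05 ± 0.31 (adjusted p = 0.59 and 0.0043).

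The sorting nexins with a membrane-bending BAR domain were mostly not called, with 1 higher and 1 lower of 8 tested at 0.3 µM and 2 higher and 1 lower at 3 µM. All genes gave 27.4% higher and 32.4% lower, then 25.0% and 31.9%. The BAR-domain nexin that fell was SNX9, which works with dynamin at the plasma membrane during endocytosis. It ranged over 28.1 to 114 CPM with DMSO (median 35.8), and stood at 15.4, 8.70, 60.8 and 5.61 CPM at 0.3 µM and at 0, 2.69, 12.5 and 8.39 CPM at 3 µM in the 4 lines. All libraries at 3 µM lay below all DMSO libraries, and at 0.3 µM Hs 936.T, the line with the highest DMSO level, overlapped with the other lines. The log2 fold change was -1.19 ± 0.21 (adjusted p = 5.9e-06) and -2.97 ± 0.34 (adjusted p = 8.7e-10).

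Of the 13 other sorting nexins tested, 7 were higher and 2 lower at 0.3 µM, and 5 were higher and 4 lower at 3 µM. Over all genes tested the shares were 27.4% higher and 32.4% lower, then 25.0% and 31.9%. SNX19 and SNX13, which sit at contacts of the ER with other membranes, changed by -1.59 ± 0.35 and -1.21 ± 0.32 at 0.3 µM, and by -1.41 ± 0.39 and -1.35 ± 0.41 at 3 µM. SNX12, a relative of SNX3, rose by 0.80 ± 0.15 and 0.93 ± 0.16. SNX24 ranged over 1.64 to 13.1 CPM with DMSO, and stood at 38.5, 5.80, 1.15 and 18.7 CPM at 0.3 µM and at 28.0, 8.06, 8.35 and 23.1 CPM at 3 µM. Its log2 fold change was 0.94 ± 0.37 and 1.25 ± 0.40 (adjusted p = 0.029 and 0.0072), and Hs 936.T at 0.3 µM was not above its DMSO libraries. SNX17, an adaptor that recycles integrins, changed by 1.15 ± 0.27 and 0.82 ± 0.33 on an entry that counts 60 codons. SNX11 and SNX21 were at 0.66 ± 0.29 and 0.99 ± 0.31 at 0.3 µM and at 0.99 ± 0.31 and 0.86 ± 0.37 at 3 µM. The SNX11 call at 3 µM was lost without Hs 936.T at that dose (0.89, adjusted p = 0.060), and the SNX21 call at 0.3 µM without Hs 936.T at that dose (0.78, adjusted p = 0.070). The SNX21 call at 0.3 µM was also lost at equal depth (0.84, adjusted p = 0.14).

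The TRAPP complexes, exchange factors for RAB1 and RAB11, had 6 of 13 tested subunits not called at 0.3 µM and 8 not called at 3 µM. Over all genes tested, 59.9% were called at 0.3 µM and 56.9% at 3 µM. The TRAPP core subunits TRAPPC2L and TRAPPC4 rose. TRAPPC2L ranged over 43.7 to 98.4 CPM with DMSO, and stood at 77.0, 107, 192 and 99.1 CPM at 0.3 µM and at 46.7, 134, 215 and 103 CPM at 3 µM, with a log2 fold change of 0.94 ± 0.14 and 1.09 ± 0.15. NCI-H1650 at 3 µM was not above the mean of its DMSO libraries. TRAPPC4 ranged over 40.5 to 215 CPM with DMSO, and stood at 69.3, 374, 66.6 and 305 CPM at 0.3 µM and at 74.7, 376, 66.8 and 224 CPM at 3 µM. Its log2 fold change was 0.72 ± 0.12 and 0.58 ± 0.13 (adjusted p = 3.1e-06 and 2.7e-04), and the call at 3 µM was lost without the NCI-H520 library of that dose (0.38, adjusted p = 0.055). TRAPPC8, a subunit of the TRAPPIII form tied to autophagy, ranged over 19.4 to 51.0 CPM with DMSO, and stood at 3.85, 8.70, 26.4 and 7.48 CPM at 0.3 µM and at 9.34, 0, 14.6 and 4.20 CPM at 3 µM. Every treated library was below the DMSO libraries of its line, and TRAPPC8 changed by -1.27 ± 0.27 and -2.25 ± 0.39 (adjusted p = 9.3e-05 and 5.2e-06). TRAPPC2B, nearly identical in sequence to TRAPPC2, so that reads may be split between them, was at -1.15 ± 0.33 (adjusted p = 0.0026) and -0.63 ± 0.33 (adjusted p = 0.10).

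The step from 0.3 to 3 µM changed few members. None was higher at 3 µM and 5 were lower; over all genes, 0.888% were higher and 2.30% lower. At an unadjusted p under 0.05, 4 members were higher and 19 lower, but all genes were not counted at that threshold. DESeq2 called 2 members higher, and 129 of all 9007 genes tested. SNX9 fell further, with a log2 change of -1.79 ± 0.45 (adjusted p = 0.017), but the call rested on Hs 936.T: without that line's 0.3 µM library the change was -1.02 (adjusted p = 0.56), and without its 3 µM library -1.46 (adjusted p = 0.31). TRAPPC11, another TRAPPIII subunit, was the one member above DMSO at the lower dose and below it at the higher. It ranged over 20.4 to 43.5 CPM with DMSO, and stood at 57.8, 29, 36.7 and 59.8 CPM at 0.3 µM and at 9.34, 10.8, 23.0 and 21.0 CPM at 3 µM in the 4 lines. Against DMSO it was at 0.50 ± 0.19 and -0.75 ± 0.28 (adjusted p = 0.023 at either dose), and between the doses at -1.20 ± 0.32 (adjusted p = 0.020).

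All 4 lines had less TRAPPC11 at 3 than at 0.3 µM. Leaving out single libraries lost the call between doses in 4 cases (both doses of A375, and the 3 µM libraries of NCI-H520 and Hs 936.T), with changes of -1.45 to -1.07. The fall against DMSO at 3 µM was lost without the NCI-H1650 (-0.65, adjusted p = 0.058) or the A375 library of that dose (-0.79, adjusted p = 0.072). At equal depth TRAPPC11 was called neither against DMSO at 3 µM (-0.66, adjusted p = 0.093) nor between doses (-1.18, adjusted p = 0.051). The other 3 lower members were SEC24A (-0.94 ± 0.25, adjusted p = 0.024), SEC24B (-0.63 ± 0.18, adjusted p = 0.039) and SEC61B (-0.46 ± 0.13, adjusted p = 0.038). None of these SEC genes was called without the libraries labelled NCI-H521, and none at equal depth.

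The response to RocA differed between the lines in 3 members, where 2.92% of all genes were called by the same test. At an unadjusted p under 0.05 there were 16 members, but all genes were not counted at that threshold. On simulated counts with differences planted in A375, this test found 26% of 2-fold and 57% of 4-fold differences. A member that was not called may therefore still differ between lines. VPS53 ranged over 32.3 to 63 CPM in the DMSO libraries, with 33.9 and 32.3 CPM in those of Hs 936.T. It stood at 3.85, 0, 23.0 and 3.74 CPM at 0.3 µM and at 0, 8.06, 33.4 and 8.39 CPM at 3 µM in NCI-H1650, NCI-H520, Hs 936.T and A375. Hs 936.T at 3 µM lay within its DMSO range, and the other lines lay far below theirs. The fitted log2 responses were -4.67, -3.52, -0.62 and -3.16 (adjusted p = 7.9e-04). SEC14L1, a lipid-binding protein related to yeast Sec14, had fitted responses of -2.85, -3.21, -0.62 and -2.34 in the same order (adjusted p = 0.033), so Hs 936.T again stood apart. Without the 0.3 µM library of Hs 936.T the adjusted p was 0.14 for VPS53 and 0.85 for SEC14L1. The SEC14L1 call was also lost at equal depth (adjusted p = 0.67), and without the 0.3 µM libraries of NCI-H520 (0.20), NCI-H1650 (0.081) and A375 (0.059) or DMSO replicate 1 of Hs 936.T (0.067).

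For TRAPPC2 the line that stood apart was A375. Its DMSO libraries had 40.8 and 26.2 CPM in NCI-H1650, 31.1 and 26.5 in NCI-H520, 10.1 and 13.6 in Hs 936.T, and 36.6 and 32.4 in A375. In that order TRAPPC2 stood at 38.5, 26.1, 5.74 and 5.61 CPM at 0.3 µM and at 18.7, 61.8, 20.9 and 14.7 CPM at 3 µM. The fitted responses were -0.42, 0.01, -0.53 and -2.36 (adjusted p = 0.033). The adjusted p was 0.16 without the 0.3 µM library of A375, 0.29 without its 3 µM library, 0.29 at equal depth, and 0.18 without the libraries labelled NCI-H521, which was also its value without the 3 µM library of NCI-H520 alone. It was 0.063 without DMSO replicate 2 of NCI-H520, 0.060 without the 0.3 µM library of NCI-H520 and 0.056 without DMSO replicate 1 of A375. With 1 library per line and dose, such a difference has no replicate of the line itself.

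Without RocA the lines differed in many members, as they did in genes at large. Over the 8 DMSO libraries 157 members were tested among 11334 genes. NCI-H1650 had 60 members higher and 34 lower than NCI-H520, where 29.7% of all genes were higher and 28.2% lower. Hs 936.T had 67 higher and 40 lower than A375 (30.8% and 32.9% of all genes). The lung lines had 41 higher and 46 lower than the melanoma lines (28.5% and 31.1% of all genes). With 2 lines per cancer type, this last comparison describes these lines, and p-values measure the spread between libraries of a line.

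Large differences were seen for Rabs that serve specialised cells. RAB27A, which holds pigment granules at the cell edge and drives secretory granules, stood at 420.8 CPM in Hs 936.T and 6.17 in A375 (DMSO means of 2 libraries, SD 1.8 and 0.10), with 7.92 in NCI-H1650 and 30.7 in NCI-H520. The log2 difference of Hs 936.T from A375 was 6.12 ± 0.15 (adjusted p = 9.9e-31). RAB32 and RAB38, which deliver enzymes to the pigment granule, were higher in Hs 936.T than in A375 by 4.0 ± 0.14 (186.4 and 12.0 CPM) and by 2.70 ± 0.12 (162.8 and 25.6 CPM). RAB38 also differed between the lung lines (5.57 CPM in NCI-H1650 and 69.8 CPM in NCI-H520), and the log2 difference was -3.68 ± 0.31 (adjusted p = 4.4e-13).

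Markers of pigment cells moved with these 3 Rabs. Of 14 melanocyte genes listed, 12 were named, and their summed level was 20798 and 21469 CPM in the DMSO libraries of Hs 936.T, against 535 and 604 CPM in those of A375. It was 280 and 243 CPM in NCI-H1650, and 690 and 1667 CPM in NCI-H520, the higher value in the library labelled NCI-H521. None of the 12 was at 0 in Hs 936.T and 1 was at 0 in A375. The part of these marker genes in the Rab differences was not tested. The 12 epithelial markers summed to 15573 and 16483 CPM in NCI-H1650, 4232 and 4179 CPM in NCI-H520, with 33.5 and 26.1 CPM for Hs 936.T and 319 and 309 CPM for A375.

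With RocA the 3 pigment Rabs did not follow each other. RAB27A fell, with a log2 fold change of -0.94 ± 0.20 and then -0.92 ± 0.22 (adjusted p = 9.7e-05 and 3.6e-04). In Hs 936.T it stood at 420 and 422 CPM in the DMSO libraries, 241 CPM at 0.3 µM and 234 CPM at 3 µM. RAB32 was at -0.54 ± 0.18 and -0.88 ± 0.22 (adjusted p = 0.0099 and 7.7e-04), and RAB38 at 0.36 ± 0.15 and 0.22 ± 0.17 (adjusted p = 0.041 and 0.27). Without the Hs 936.T library of the dose, the 3 µM calls of RAB27A (-1.24, adjusted p = 0.076) and RAB32 (-0.85, adjusted p = 0.12) were lost, as was the 0.3 µM call of RAB38 (0.07, adjusted p = 0.83). The RAB38 call was also lost with DESeq2 (0.25, adjusted p = 0.28), RLE scaling (0.28, adjusted p = 0.11), no filter (0.17, adjusted p = 0.45), equal depth (0.35, adjusted p = 0.12), without the libraries labelled NCI-H521 (0.27, adjusted p = 0.12), and with others of the single libraries left out. RAB32 lost its 0.3 µM call at equal depth (-0.53, adjusted p = 0.12). Only in Hs 936.T were all 3 pigment Rabs above 100 CPM with DMSO, so the other lines add few counts. The melanocyte sum of Hs 936.T was 35462 CPM at 0.3 µM and 20204 CPM at 3 µM.

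Other members were present in some lines and nearly absent in others under DMSO. RAB34, a Rab of cilia and lysosome positioning, had 97 counts in NCI-H1650 and 1 in NCI-H520 (103-fold higher after scaling, 95% counting interval 18.0 to 4097), and 3 counts in Hs 936.T against 665 in A375 (185-fold lower, 62.9 to 898). RAB3C, a Rab of regulated secretion picked after its values were seen, had 374 counts in Hs 936.T and 1 in A375 (449-fold higher, 80.1 to 17779). SNX7 had 1 count in Hs 936.T and 235 in A375 (196-fold lower, 34.8 to 7765). It was higher in the lung than in the melanoma lines by 3.27 ± 0.37 on the log2 scale. That contrast takes the mean log level of 2 lines, and Hs 936.T near 0 weighs heavily in it. RAB3B, a relative of RAB3C, was at 6.49 CPM in NCI-H1650 and 145 CPM in NCI-H520 (log2 difference -4.51 ± 0.35), and at 0.14 CPM in Hs 936.T and 3.11 CPM in A375. SNX10, found on endosomes of osteoclasts, had 43 counts in NCI-H1650 and 3 in NCI-H520 (15.2-fold higher, 4.86 to 76.5). It was lower in the lung lines by a log2 difference of -2.43 ± 0.30, in which the low level of NCI-H520 weighs heavily. RAB25, the epithelial Rab, had 138 counts in the lung lines and 0 in the melanoma lines, at least 182-fold higher at a floor of 3 counts over the 4 libraries.

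**Figure D5:**
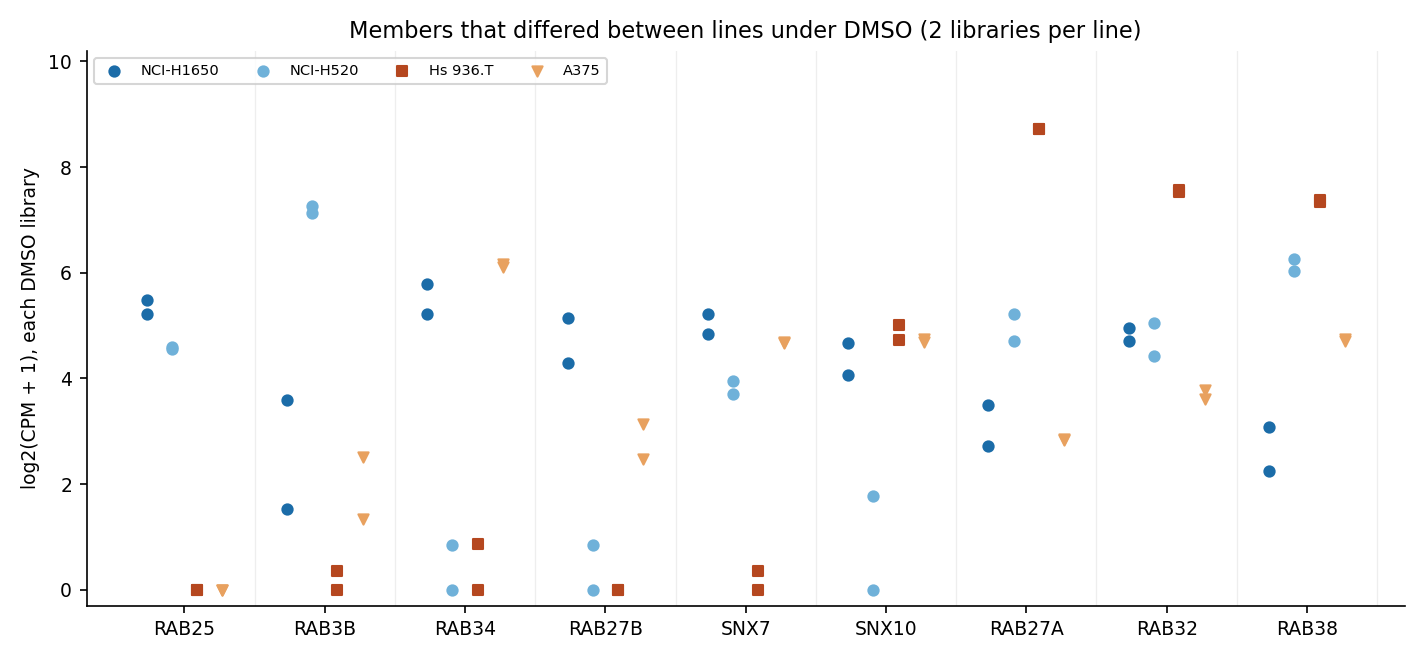
Level of members that differed between lines in each of the 8 DMSO libraries, as log2 of CPM + 1 (vertical axis), with 1 colour per line and 2 libraries per line. RAB27A, RAB32 and RAB38 are highest in Hs 936.T, and RAB25 shows no count in the melanoma lines.

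Partners of these genes outside the symbol rule were counted from lists of Rab regulators, exchange factors, GTPase-activating proteins, effectors, coat partners and endosomal sorting genes. Over all lists 53 of 199 tested genes were higher and 71 lower at 0.3 µM (26.6% and 35.7%), and 39 were higher and 58 lower at 3 µM (19.6% and 29.1%), near or below the 27.4% and 32.4%, and 25.0% and 31.9%, over all genes tested, except for the lower genes at 0.3 µM, which were slightly above. The exchange factors, which load Rabs with GTP, gave 3 higher and 9 lower of 20, then 1 higher and 5 lower. The GTPase-activating proteins, which switch Rabs off, gave 4 higher and 8 lower of 25, then 2 higher and 5 lower. The effectors and tethers gave 6 higher and 11 lower of 35, then 4 higher and 9 lower. The examples named below were picked after their values were seen.

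Of 11 regulators that carry or prenylate Rabs, 3 were higher and 4 lower at 0.3 µM, and 3 were higher and 3 lower at 3 µM. GDI2, which extracts Rabs from membranes, changed by -0.82 ± 0.15 and -1.49 ± 0.18. RABGGTB, a subunit of the enzyme that attaches the lipid anchor, changed by 0.93 ± 0.13 and 1.46 ± 0.13, and CHM, the escort protein that presents Rabs to it, by 0.81 ± 0.16 and 0.96 ± 0.18. TBC1D5, a GTPase-activating protein for RAB7 that binds retromer, changed by -2.20 ± 0.34 and -5.60 ± 0.72.

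The partners of COPII and COPI gave 18 higher and 18 lower of 43 tested at 0.3 µM, and 14 higher and 16 lower at 3 µM. The GTPases that start the COPII coat were split, SAR1A at -1.95 ± 0.16 and -1.62 ± 0.17, and SAR1B at 0.76 ± 0.13 and 0.67 ± 0.14. ARCN1, the delta subunit of COPI, changed by -1.38 ± 0.13 and -0.94 ± 0.14, and ARF4, a GTPase of the Golgi, by -1.89 ± 0.15 and -2.10 ± 0.17. The ER exit receptors MIA3 and LMAN1 rose, by 1.68 ± 0.14 and 1.14 ± 0.11 at 0.3 µM and by 1.43 ± 0.16 and 0.90 ± 0.11 at 3 µM. The ESCRT and endosome partners gave 19 higher and 21 lower of 65, then 15 higher and 20 lower, with CHMP6 of ESCRT-III at 1.90 ± 0.24 and 1.85 ± 0.28 and AP2M1, of the clathrin adaptor at the plasma membrane, at -2.04 ± 0.15 and -2.60 ± 0.18.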

How the data were processed

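The deposited files hold, per the labels, raw footprint counts of the authors for 182398 transcript entries, with an identifier and the number of codons counted. The authors' codon number is 10 under the length of the coding sequence, and the 88482 entries without one hold no count. Per the submitters' processing notes, CASAVA 1.8, Bowtie2 2.1.0 and TopHat2 2.0.9 were used with hg38. The annotation release was not given in the sources used here.

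Entries were named by aligning the order of their codon numbers with the coding transcripts of GENCODE 29, at a minimum posterior of 0.95 (0.999 as the stricter alternative). This named 18429 genes from 68551 of 93916 coding entries. Of 1019 decoys, genes given altered lengths, 44 passed (4.82% of the number of true genes passing). The entry with the highest count sum stood for its gene, so a short isoform can do so.

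Counts were analysed with edgeR 4.0.16 (TMM scaling, filterByExpr with a minimum count of 10, robust quasi-likelihood test, 2-sided, Benjamini-Hochberg over all genes tested) and DESeq2 1.42.0 in R 4.3.3 (limma 3.58.1). Python 3.11.15 ran matplotlib 3.10.9, numba 0.67.0, pandas 2.3.3, SciPy 1.17.1 and NumPy 2.4.6. The dose fit had terms for line and dose over 16 libraries; the response of the lines used a term for each line; the lines were compared over the 8 DMSO libraries. SE was computed back from the test, as the absolute log2 fold change divided by the square root of its quasi-likelihood F statistic. Ratios of 1 to 3 counts have 95% counting intervals, and a count of 0 is given at a floor of 3 counts; both cover counting error only. The scripts were tested on simulated data.

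Per family and dose, values are given for the 2 largest called rises and falls with at least 10 CPM on average and 1 sign in all lines. Likewise given are the 2 largest differences between doses and lines, the 3 smallest p for a differing response, members at 0 at a dose, COPI, retromer and the pigment Rabs. The members, lists and this rule were chosen with earlier results of these data known. The alternatives were DESeq2, RLE scaling, no filter, the longest entry, stricter naming, equal depth, a replicate block, the NCI-H521 libraries, and each library or line left out. Members with 0 to 3 counts at a dose were also scaled line by line, from the DMSO level of each line, a setting added after the data were seen.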

Additional observations from a re-analysis of the deposited data

Results flagged for a closer look

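Of 98 groups of 4 lines looked at, 5 had 1 line far from the other 3; chance flags about 1 in 20 such groups. COPB1 changed by -7.02 on the log2 scale in NCI-H1650 at 3 µM, against -2.08 to -1.57 in the other lines; the count there was 0, in the shallowest library, against 38.5 CPM at 0.3 µM. RAB13 was higher in NCI-H520 at 3 µM (1.16) than elsewhere (0.51 to 0.56). RAB38 changed by -2.38 in NCI-H1650 at 0.3 µM, where its count was 0, against 0.22 to 0.45. SNX11 changed by 0.027 in NCI-H1650 at 3 µM, against 0.93 to 1.0. VPS4B changed by -0.33 in NCI-H520 at 0.3 µM, against -2.01 to -1.95.

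Responses that differed between the lines were those of VPS53 (adjusted p = 7.94e-04, edgeR), SEC14L1 (adjusted p = 0.0331) and TRAPPC2 (adjusted p = 0.0334). Each of these calls was lost when certain single libraries were left out, as given with their values above.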

How the results depend on the processing

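The 82 results for single members were looked at under up to 28 settings. In 63 cases they kept their direction and side of the threshold under every setting that tested them. Stricter naming tested 77 of the 82 and equal depth 66. The contrasts of lines under DMSO were not run at equal depth or with a line left out. VPS26B, near 0 at 0.3 µM (0.02), turned negative with DESeq2 (-0.051), RLE scaling (-0.057), no filter (-0.14), without the NCI-H521 libraries (-0.19), and in 8 of the cases with 1 library or line left out (range -0.29 to 0.18); it was not called under these settings, and the cause was not tested. Leaving out single libraries or lines moved the members higher and lower at 0.3 µM to 31 to 41 and 42 to 53, and at 3 µM to 30 to 40 and 43 to 56. Between doses the higher members ran from 0 to 1 and the lower from 0 to 6, and differing responses from 1 to 3. For NCI-H1650 against NCI-H520 the higher ran from 47 to 60 and the lower from 29 to 35, for Hs 936.T against A375 from 55 to 68 and 27 to 41, and for lung against melanoma from 35 to 44 and 38 to 45. Between doses, DESeq2 called 2 higher and the longest entry 1 higher, where none was called before; 3 were lower with RLE scaling, 3 with stricter naming, 1 without the NCI-H521 libraries and 2 at equal depth. At equal depth, which uses fewer counts, 1 response differed between lines. Of 66 results for single members there, 10 lost their call.

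Replicate numbers under DMSO paired no lines (correlations of deviations -0.005 to 0.067 over 11334 genes). With the replicate block, members higher and lower were 61 and 33 for NCI-H1650 against NCI-H520, 67 and 39 for Hs 936.T against A375, and 42 and 45 for lung against melanoma. Without the filter, the median of all genes moved to -0.43 and -0.52 on the log2 scale at 0.3 and 3 µM. Scaled line by line, a setting added after the data were seen, the bounds at 3 µM were at least 8.54-fold lower for RAB29, 1.92-fold for RAB27B and 1.04-fold for RAB9B, and RAB7B was 3.56-fold and RAB6C 11.0-fold lower. Depth limits most the 3 µM library of NCI-H1650.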
